A study of Mus musculus with 12 samples.

Results

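The comparison described here sets white adipose tissue of mice kept for 5 weeks at 4 °C against that of mice kept for 1 week at 4 °C, across all probe sets of an Affymetrix expression array. The members are the 6 arrays whose titles give 4 degrees, 3 at each time, of 12 arrays in all. All animals were male C57/BL6 mice aged 6-8 weeks, first housed at 22 °C. The same age range is given for both durations, so any difference in age at sampling cannot be told apart from time in cold. Per the protocols, a period of 1-3 weeks at 18 °C preceded the stay at 4 °C. The other 6 arrays are controls of the same 2 durations, 3 each, which the titles place at 30 degrees and the source names at room temperature, so their temperature is not settled. No gene was altered and no agent was given in any group. The labels do not name the fat depot, and they do not say whether each array is a separate animal. A p-value here reflects how far arrays scatter within their groups, pooled over all 4 groups, and that scatter may be technical.

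Cold makes white fat take on features of brown fat: sympathetic nerves release noradrenaline, adipocytes raise the uncoupling protein Ucp1 and build mitochondria, and fatty acids are burned for heat. The 1-week arrays already hold that state, so the comparison asks what a longer stay in the cold changes in fat that has browned. A log2 difference of 1 is a doubling of the array signal, and a gene was called where its Benjamini-Hochberg adjusted p from limma, over all genes tested, was below 0.05. Bulk tissue was measured, so fewer cells of a type and less RNA per cell cannot be told apart.

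Of 12855 genes tested, 3534 were called between 5 weeks and 1 week in cold, which is 27.5%. Of these, 1986 were higher at 5 weeks (15.4% of the genes tested) and 1548 were lower (12%). At least 2-fold changes were found for 180 genes that were higher (1.4%) and 175 that were lower (1.36%). With each array centred on its median the split was 1591 higher and 1998 lower, so the balance of directions over all genes has no fixed sign. Over all probe sets above the same level, 7538 of 26510 were called (28.4%). In the controls, the same interval gave 328 genes (2.55%), 165 higher (1.28%) and 163 lower (1.27%). Probe sets with no or several gene names, tested apart, were called in 1204 of 4132 cases in cold (29.1%) and in 137 in the controls (3.32%).

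The labelled tissue carried its defining markers. Adipoq, the adipokine adiponectin, lay between 14.59 and 14.69 on all 6 cold arrays. RNA quality differed between the groups compared. The 3' minus 5' signal of the Actb control probe sets, which grows as RNA is shortened, was 1.33, 1.16 and 1.01 on the 1-week cold arrays and 2.03, 1.84 and 2.80 on the 5-week cold arrays. These ranges did not overlap, so RNA quality by this measure and time in cold cannot be told apart, and with the Actb signal as a covariate 5 genes were called. The same measure for Gapdh was -0.08, 0.34 and -0.08 at 1 week against 0.96, 0.19 and 3.01 at 5 weeks, and with it as a covariate 1885 genes were called. Replicate 2 at 5 weeks lay within the 1-week range for Gapdh but not for Actb. With that array as the only 5-week cold array, and its spread assumed to be that of the other groups, 502 genes were called. Replicate 3 at 5 weeks had the highest 3' minus 5' signals, and without it 2054 genes were called. Skeletal muscle genes were high on replicate 2 of the 1-week cold arrays. The mean of 28 muscle genes there was 8.28, against 4.99 and 5.05 on the other 1-week cold arrays and 4.81 to 4.9 at 5 weeks.

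Genes of heat production stayed high. Among 33 tested thermogenic, brown and beige adipocyte genes, 3 were higher and 4 lower at 5 weeks, 26 were not called, so 21.2% were called beside 27.5% of all genes, and the median log2 change was 0.00, beside 0.01 over all genes. Against the controls of the same time, the median of these genes was 1.64 at 1 week and 1.82 at 5 weeks. Ucp1, which lets protons leak across the inner mitochondrial membrane, measured 15.15, 14.90 and 15.03 at 1 week and 14.65, 14.80 and 14.56 at 5 weeks. All 3 arrays at 5 weeks lay below all 3 at 1 week, but the log2 difference of -0.36 (SE 0.42, n = 3 per group) had a limma adjusted p of 0.565. On the control arrays Ucp1 lay between 6.32 and 8.15, and that wider spread enters the estimate of error that the 4 groups share.

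Elovl3, an elongase of very long chain fatty acids that is strongly induced in cold brown fat, measured 12.87, 12.08 and 12.84 at 1 week and 11.34, 11.56 and 11.10 at 5 weeks. The groups did not overlap, and the difference of -1.27 (SE 0.49) had a limma adjusted p of 0.0738. Cidea, a lipid droplet protein of brown adipocytes, measured 14.28, 14.11 and 14.38 at 1 week and 13.75, 13.97 and 13.04 at 5 weeks, a difference of -0.67 (limma adjusted p 0.235). Cox7a1, a muscle and brown fat isoform of a cytochrome c oxidase subunit, went from 13.55, 13.35 and 13.30 to 12.90, 12.97 and 12.45 (-0.63, limma adjusted p 0.144). Dio2, the deiodinase that makes active thyroid hormone, measured 6.42, 5.70 and 5.07 at 1 week and 6.41, 6.78 and 6.55 at 5 weeks. Its groups overlapped, and the difference of 0.85 had a limma adjusted p of 0.0522, while its other probe set differed by -0.26. Acot11, a thioesterase of brown fat, differed by 0.01 and Ppargc1a, the coactivator of mitochondrial biogenesis, by 0.16, and neither was called. The other probe set of Acot11 differed by -1.53 and those of Ppargc1a by -1.79 to 1.08.

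**Figure D1:**
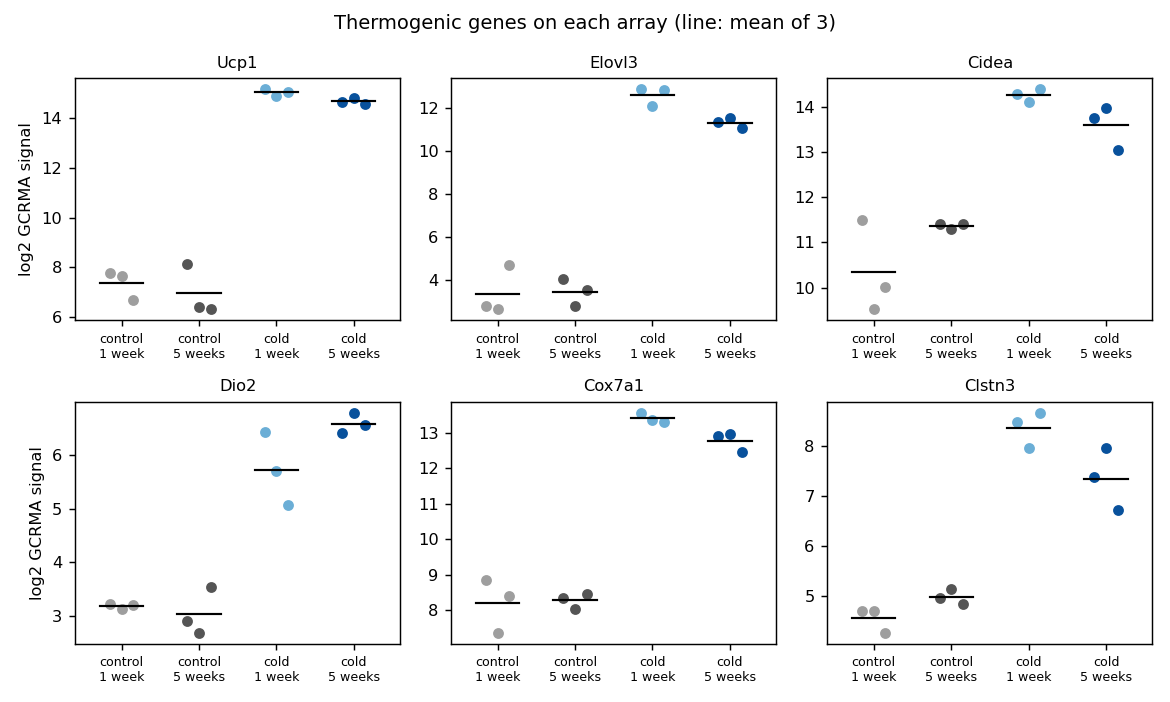
Log2 GCRMA signal of 6 thermogenic genes (y axes) on each of the 3 arrays of the 4 groups (x axes), with lines at the group means. Ucp1, Elovl3, Cidea and Cox7a1 are high in cold at both times, and their 5-week cold arrays lie below the 1-week cold arrays; none of these 4 was called.

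The thermogenic genes that were called moved in both directions. Ebf2, a transcription factor of beige and brown precursor cells, measured 8.66, 8.61 and 8.39 at 1 week and 9.59, 9.31 and 9.43 at 5 weeks, higher by 0.89 (SE 0.13, limma adjusted p 0.00134). Ppargc1b, a coactivator close to Ppargc1a, was higher by 0.73 (limma adjusted p 0.00839). Kcnk3, a potassium channel of thermogenic adipocytes, measured 10.11, 10.05 and 9.60 at 1 week and 9.24, 9.11 and 8.71 at 5 weeks, and fell by 0.90 (SE 0.20, limma adjusted p 0.0083), while its other probe set differed by 0.19. Tbx1 fell by 0.47, with values close to the log2 level of 4 that the filter uses. S100b, a protein that adipocytes release to guide sympathetic nerve growth, measured 8.87, 8.38 and 8.52 at 1 week and 9.45, 9.71 and 9.79 at 5 weeks, a rise of 1.06 (SE 0.17, limma adjusted p 0.00173). Clstn3, a synaptic protein gene also used by thermogenic adipocytes, measured 8.49, 7.96 and 8.66 at 1 week and 7.38, 7.96 and 6.71 at 5 weeks. Its fall of 1.02 was called (limma adjusted p 0.0201), but not without replicate 1 or 3 at 1 week or replicate 3 at 5 weeks, and it was 0.10 with the Actb signal as a covariate.

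Genes of cholesterol synthesis were lower at 5 weeks. Of 20 tested, 13 were lower and 1 higher, which is 65.0% lower beside 12% of all genes, and their median log2 change was -0.55. In the controls 4 were lower and 1 was higher, beside 1.27% and 1.28% of all genes, with a median of -0.13. The mean of the 20 genes was 9.49, 9.77 and 9.68 on the 1-week cold arrays and 9.23, 9.15 and 9.03 on the 5-week cold arrays, while the control arrays lay between 8.92 and 9.21. Of the 5-week cold arrays, replicates 2 and 3 lay within the range of the controls and replicate 1 just above it. Fdps, which makes farnesyl pyrophosphate, measured 11.07, 11.30 and 11.36 at 1 week and 9.87, 9.71 and 8.98 at 5 weeks, 3.31-fold lower (log2 -1.73, SE 0.23, limma adjusted p 0.000788). Tm7sf2, a sterol reductase of the pathway, measured 7.15, 8.07 and 8.31 at 1 week and 6.32, 5.92 and 5.92 at 5 weeks, 3.46-fold lower (limma adjusted p 0.000819), and stayed between 5.88 and 6.20 on the control arrays. Sc5d, a desaturase near the end of the pathway, fell by 0.91 (limma adjusted p 0.00126). Sqle, the squalene epoxidase, differed by -0.62 in cold and -0.47 in the controls (limma adjusted p 0.000892 and 0.0193), and the difference between these changes was not called. Hmgcs1, a synthase early in the pathway, differed by 0.07 and was not called, while its other probe sets differed by -1.06 to 0.12. With the Gapdh signal as a covariate 7 were lower, beside 898 of all 12855 genes. With replicate 2 as the only 5-week cold array the median was -0.47. Without the muscle-rich array and replicate 3 at 5 weeks, 6 were lower and none higher, beside 849 lower and 1378 higher of all genes.

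Many genes of mitochondrial translation and respiration were lower as well. Of 76 mitochondrial ribosomal protein genes, 41 were lower and 2 higher (53.95% lower beside 12% of all genes), with a median of -0.36. By subunit, 26 of 47 of the large one and 15 of 29 of the small one were lower. Mrpl12, which also binds mitochondrial RNA polymerase, measured 11.32, 11.48 and 11.38 at 1 week and 10.38, 10.32 and 9.73 at 5 weeks, 2.38-fold lower (limma adjusted p 0.000624). Mrps22, a small subunit protein, measured 10.66, 10.71 and 10.84 at 1 week and 10.03, 9.98 and 9.90 at 5 weeks, lower by 0.77 on the log2 scale. No member of this list was called in the controls, where 2.55% of all genes were. Without the muscle-rich array and replicate 3 at 5 weeks, 27 were lower and 2 higher, beside 849 lower and 1378 higher of all 12855 genes.

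Of 80 oxidative phosphorylation genes, 38 were lower and 3 higher (47.5% lower beside 12% of all genes), with a median of -0.26, and none was called in the controls, where 2.55% of all genes were. Members of ATP synthase were lower in 12 of 18 cases, those of complex III and cytochrome c in 6 of 10, those of complex I in 15 of 33 and those of complex IV in 3 of 15. Uqcr11, a complex III subunit, measured 12.71, 12.88 and 12.60 at 1 week and 11.89, 11.81 and 11.39 at 5 weeks, lower by 1.03 (SE 0.14, limma adjusted p 0.000792). Ndufa9, a complex I subunit, measured 13.13, 13.14 and 13.15 at 1 week and 12.54, 12.51 and 12.35 at 5 weeks, lower by 0.67 (limma adjusted p 0.000989). Their control arrays lay between 11.45 and 11.78 for Uqcr11 and between 11.64 and 11.96 for Ndufa9. Both genes therefore stayed at or above the control level at 5 weeks in cold, with 1 exception, replicate 3 for Uqcr11.

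Genes of fatty acid oxidation and the TCA cycle were also more often lower than higher among those called. Among 27 fatty acid oxidation genes 10 were lower and 1 higher (37.0% lower beside 12% of all genes), with a median of -0.22. Without replicate 3 at 1 week 6 were lower, beside 1340 of all 12855 genes, and with the Gapdh covariate the median was -0.09. Echs1, the enoyl-CoA hydratase, measured 12.97, 12.85 and 12.99 at 1 week and 12.08, 12.05 and 11.31 at 5 weeks, 2.18-fold lower. Cpt1a, the carnitine transferase that admits fatty acids to mitochondria, went the other way, from 8.62, 8.64 and 8.03 to 9.88, 9.22 and 9.59, 2.2-fold higher (limma adjusted p 0.0036). In the TCA list 12 of 32 genes were lower and 2 higher (37.5% lower beside 12%), with a median of -0.18. The lower ones numbered 5 without replicate 1 or replicate 3 at 1 week, 6 without replicate 1 at 5 weeks and 4 without replicate 3 at 5 weeks. Over all genes 1325, 1340, 1317 and 947 were lower in these settings, in that order. The largest fall in it, Pcx, the pyruvate carboxylase, is also the gene whose control probe sets track RNA quality, and the part of RNA quality in its fall of 1.56 was not tested.

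Proteasome subunits showed 21 lower and 2 higher of 37, 56.8% lower beside 12% of all genes, with a median of -0.35 in cold and -0.02 in the controls. The beta ring, which holds the catalytic sites, had 8 of 10 lower and the alpha ring 3 of 7. Psmb5, a catalytic beta subunit, measured 11.86, 12.13 and 12.02 at 1 week and 11.30, 11.21 and 11.19 at 5 weeks, lower by 0.77 (SE 0.11, limma adjusted p 0.00105). Psmd2, a regulatory subunit, was lower by 0.88 (limma adjusted p 0.00075). The mean of the 37 genes did not overlap between the cold groups. Without the muscle-rich array and replicate 3 at 5 weeks, 10 proteasome genes and 28 genes of oxidative phosphorylation were lower, beside 849 of all 12855 genes. Counts of lower proteasome genes were 14 without the muscle-rich array, 13 without replicate 3 at 5 weeks, 11 with the 6 cold arrays alone and 10 with the Gapdh covariate. Over all genes 1255, 947, 967 and 898 were lower in these settings, in that order. With replicate 2 as the only 5-week cold array the medians were -0.3 for mitochondrial ribosome, -0.33 for proteasome and -0.25 for oxidative phosphorylation genes. With the Actb signal as a covariate no member of the cholesterol, mitochondrial ribosome, proteasome or oxidative phosphorylation lists was called, and the medians were -0.34, -0.18, -0.13 and -0.09.

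**Figure D2:**
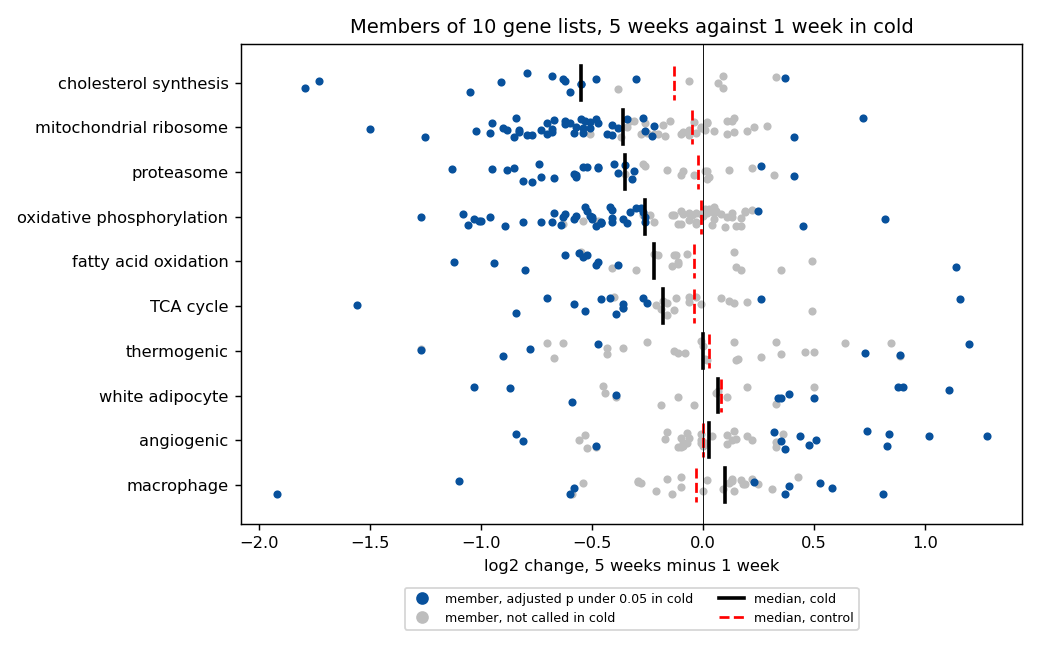
Log2 change from 1 week to 5 weeks in cold (x axis) for the tested members of 10 gene lists (y axis), blue where called in cold, with black lines at the list medians in cold and red dashed lines at the medians of the same genes in the controls. The medians of cholesterol synthesis (-0.55), the mitochondrial ribosome (-0.36), the proteasome (-0.35) and oxidative phosphorylation (-0.26) lie left of 0, while the thermogenic median is at 0.00.

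**Figure D3:**
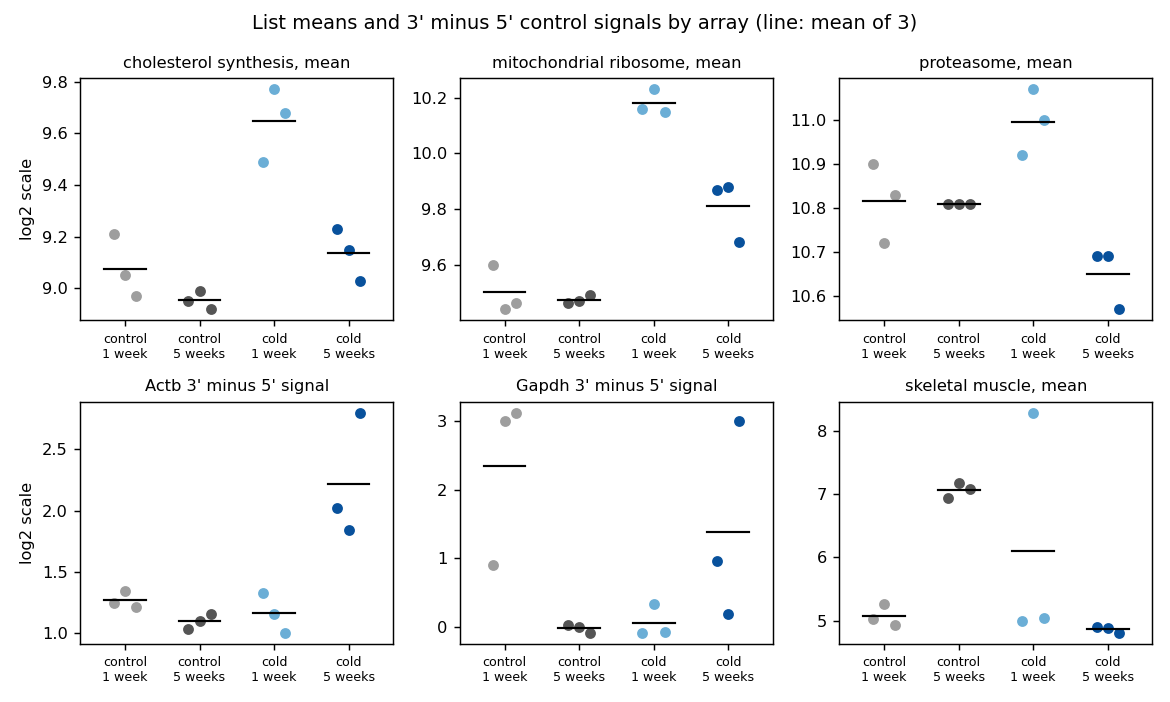
Means of 3 gene lists, of the muscle list and of the Actb and Gapdh 3' minus 5' control signals (y axes, log2 scale) on each array of the 4 groups, with lines at the group means. Cholesterol, mitochondrial ribosome and proteasome means are lower at 5 weeks in cold than at 1 week, where the Actb signal is higher, and replicate 2 of the 1-week cold group stands apart in muscle genes.

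Clock genes moved in cold and in the controls. The clock is a loop in which Arntl and its partner switch on Nr1d1, Nr1d2 and Dbp, and the Nr1d proteins, Rev-erb alpha and beta, repress Arntl and Nfil3 in turn, so that their levels cycle over the day. The labels give no hour of sampling, and its part in these changes was not tested. Nr1d1 measured 6.96, 6.26 and 6.36 at 1 week in cold and 8.88, 8.51 and 8.56 at 5 weeks, 4.36-fold higher (log2 2.12, SE 0.35, limma adjusted p 0.00209). In the controls Nr1d1 rose by 3.30. Nr1d2 went from 9.30, 8.77 and 9.24 to 10.98, 10.91 and 11.07 in cold (1.88, limma adjusted p 0.00023) and rose by 1.23 in the controls. Dbp, an output factor of the clock, measured 6.98, 7.06 and 6.72 at 1 week and 8.46, 8.51 and 8.87 at 5 weeks, higher by 1.70, and it rose by 2.66 in the controls. The difference between these changes was -0.96 (limma adjusted p 0.0194). Arntl measured 8.13, 8.32 and 8.16 at 1 week and 7.28, 7.34 and 7.31 at 5 weeks, a difference of -0.89 in cold beside -1.1 in the controls. Nfil3, named after its values were seen, differed by -1.23 in cold and -2.11 in the controls. Of 18 clock genes 4 rose and 2 fell in cold (33.3% called beside 27.5% of all genes), and 5 rose and 4 fell in the controls, where 2.55% of all genes were called; Per2 differed by 0.36 and was not called.

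The start sites of these 5 genes are shown because they moved together in both settings. Each line gives the 250 bases before the start of the gene, 5' to 3' on the strand of the gene, from RefSeq on GRCm38.p6. Capitals mark matches to 6 of the 10 spellings searched, and matches to the other 4 alone are in lower case. Of those 4, CCAAT was in the windows of Nr1d2, Dbp, Arntl and Nfil3, and AGGTCA in those of Nr1d2 and Nfil3. Nr1d1 lies at chr11:98775378-98775627 (minus strand), Nr1d2 at chr14:18239107-18239356 (minus), Dbp at chr7:45704997-45705246 (plus), the first of 2 Arntl starts at chr7:113207215-113207464 (plus) and Nfil3 at chr13:52981040-52981289 (minus).
Nr1d1: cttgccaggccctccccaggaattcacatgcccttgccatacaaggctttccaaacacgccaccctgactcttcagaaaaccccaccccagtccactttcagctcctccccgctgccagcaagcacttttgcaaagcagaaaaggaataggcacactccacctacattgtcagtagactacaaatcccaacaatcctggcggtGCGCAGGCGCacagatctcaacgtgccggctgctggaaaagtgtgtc
Nr1d2: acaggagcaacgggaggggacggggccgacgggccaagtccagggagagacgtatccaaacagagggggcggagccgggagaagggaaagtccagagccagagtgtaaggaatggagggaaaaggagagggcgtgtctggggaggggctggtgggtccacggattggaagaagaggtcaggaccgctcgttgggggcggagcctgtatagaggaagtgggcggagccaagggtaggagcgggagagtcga
Dbp: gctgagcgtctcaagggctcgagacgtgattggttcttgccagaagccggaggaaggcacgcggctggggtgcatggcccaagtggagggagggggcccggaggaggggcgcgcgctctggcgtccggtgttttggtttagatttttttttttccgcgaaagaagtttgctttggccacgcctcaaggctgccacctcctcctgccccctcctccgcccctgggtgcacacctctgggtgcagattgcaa
Arntl: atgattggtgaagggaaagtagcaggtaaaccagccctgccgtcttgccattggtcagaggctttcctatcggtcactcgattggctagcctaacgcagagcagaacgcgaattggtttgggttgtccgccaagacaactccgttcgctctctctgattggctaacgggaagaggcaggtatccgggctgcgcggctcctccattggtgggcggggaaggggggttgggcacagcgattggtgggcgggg
Nfil3: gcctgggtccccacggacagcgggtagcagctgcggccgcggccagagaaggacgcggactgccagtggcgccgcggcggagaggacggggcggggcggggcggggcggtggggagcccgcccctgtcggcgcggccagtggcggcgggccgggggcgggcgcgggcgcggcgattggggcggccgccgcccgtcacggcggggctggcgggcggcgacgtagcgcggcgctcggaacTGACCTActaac
In all 10 motif spellings were searched on both strands in 5 lists. The 6 marked in capitals were kept from these 10 after the windows of 33 genes, many of them picked because they had moved, had been looked at, so the choice of motifs is not independent of these data. The letters CACGTG, an E-box bound by Arntl and its partner, were in the windows of 4 of 16 clock genes with a window, Bhlhe41, Cry1, Per1 and Tef, and of 6.02% of all windows. The letters TAGGTCA, part of the element bound by Rev-erb proteins, were in that of Nfil3 and 2.23% of all windows. The D-box TTATGTAA was in that of Per3 and 0.819% of all windows, and the NRF1 motif in those of Clock and Nr1d1 and 3.74% of all windows. For the cholesterol list, CACCCCAC, the core of a sterol element, was in the window of Hmgcs1 among 16 genes with a window and in 2.58% of all windows. The endoplasmic reticulum stress element was in 6 of 26 heat shock and endoplasmic reticulum genes and 0.113% of all windows. The 6 were Calr, Canx, Creld2, Hsp90b1, Hspa5 and Pdia6. Pdia6 fell, and the windows of Sdf2l1 and Pdia3, which fell too, held no match. The E-box was also in 4 of 16 windows of cholesterol genes, and the NRF1 motif in 11 of 66 of oxidative phosphorylation genes and 9 of 67 of mitochondrial ribosome genes. Of the 4 other spellings, CCAAT, which is also the start of the endoplasmic reticulum stress element, was in 16 of 16 cholesterol windows, 19 of 26 heat shock and endoplasmic reticulum windows, 10 of 16 clock windows and 33.8% of all windows. The shorter Rev-erb letters AGGTCA, which lie within TAGGTCA, were in 4 of 16 clock windows and 14% of all windows. A longer sterol core, TCACCCCAC, was in 1 of 16 cholesterol windows and 0.496% of all windows, and a longer NRF1 spelling in 1 of 66 oxidative phosphorylation windows, 2 of 67 mitochondrial ribosome windows and 0.499% of all windows. A match is a description of letters in these windows.

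**Figure D4:**
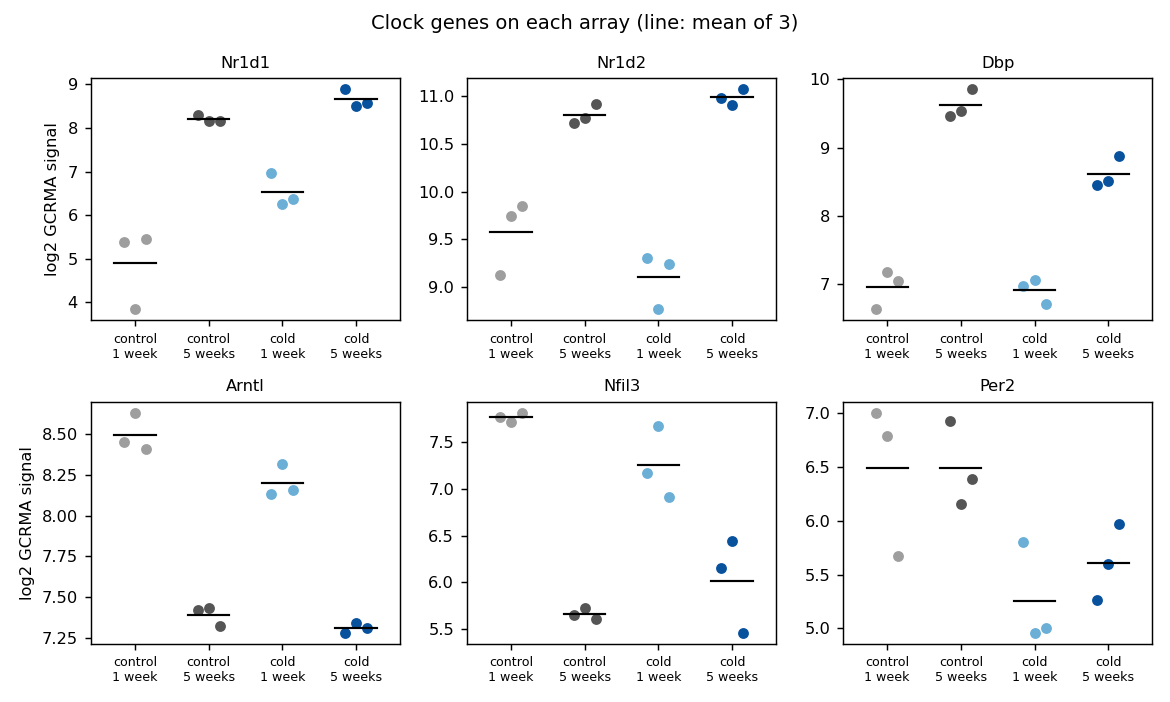
Log2 GCRMA signal of 6 clock genes (y axes) on each array of the 4 groups (x axes), with lines at the group means. Nr1d1, Nr1d2 and Dbp are higher and Arntl and Nfil3 lower at 5 weeks than at 1 week in cold and in control, and Per2 was not called.

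Some of the largest changes in cold were also found in the controls. Of the 3534 genes called in cold, 121 were called in the controls, 79 in the same direction and the others in opposite directions. The 79 are 2.24% of the calls in cold and 24.1% of those in the controls. Over all genes, 27.5% were called in cold and 2.55% in the controls. Across all genes the Pearson r between the change in cold and that in the controls was -0.147. Rraga, a GTPase of nutrient sensing by mTORC1, measured 8.90, 9.75 and 9.55 at 1 week and 6.91, 6.77 and 6.73 at 5 weeks, and its difference was -2.60 in cold and -2.20 in the controls. Hsd17b12, an enzyme of very long chain fatty acid elongation, differed by -2.05 in cold and -1.92 in the controls, called in both. Spr, which makes the cofactor tetrahydrobiopterin, differed by -2.33 and -1.68. Pi16, a marker of fibroblast progenitors, differed by -1.53 and -1.31. Igha, the constant region of IgA, went the other way, from 8.25, 7.87 and 7.98 to 9.32, 9.31 and 9.40 in cold, a rise of 1.31, and by 2.84 in the controls. Across genes the test of the difference between the changes called 2551 (19.8%), 1474 with a higher change in cold (11.5%) and 1077 with a lower one (8.38%), which include 1962 of the genes called in cold. That test uses the same cold arrays. In the control groups the Gapdh 3' minus 5' signal went from 0.90, 3.00 and 3.12 at 1 week to 0.03, -0.01 and -0.08 at 5 weeks, against its direction in cold, and the mean of the muscle genes went from 4.93 to 5.26 at 1 week to 6.94 to 7.17 at 5 weeks. With the Gapdh signal as a covariate 3 genes were called in the difference, with the Actb signal 0 (4540 genes had an unadjusted p below 0.05 in limma without a covariate) and with the muscle mean 824. The 5-week control arrays resembled each other more than those of other groups, and averaged and counted as 1 they left 1 gene called. The lowest values of the difference were of muscle genes such as Myh1 (-8.30) and Acta1 (-7.94).

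**Figure D5:**
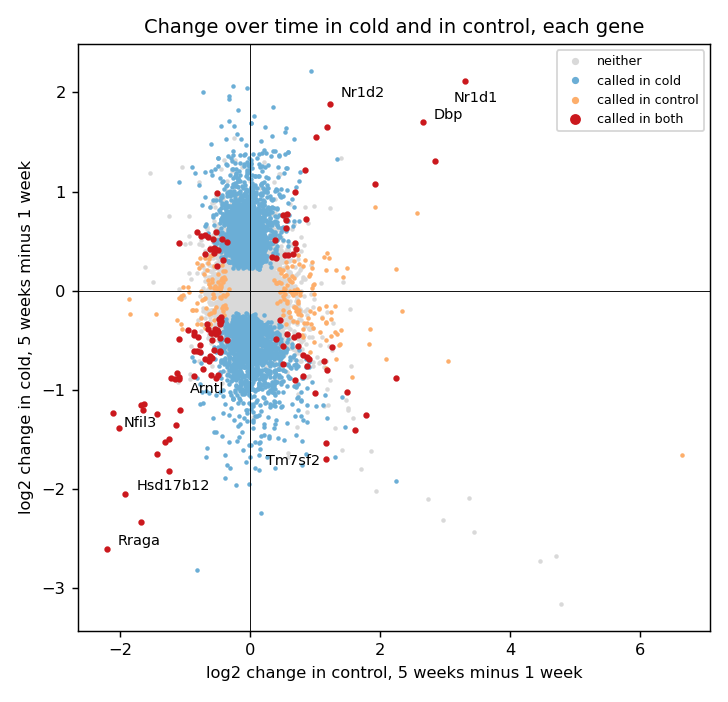
Log2 change from 1 week to 5 weeks in cold (y axis) against that in the controls (x axis), 1 point per gene, colored by where the gene was called. Red points, called in both, include Nr1d1, Nr1d2, Dbp, Rraga and Hsd17b12, and most genes called in cold lie near 0 on the x axis.

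Several of the largest rises in cold, beside the clock genes, were of genes whose values at 1 week lay below those of the controls. Tet2, a dioxygenase that oxidises methylcytosine, measured 7.11, 6.79 and 6.84 at 1 week and 8.72, 8.79 and 8.78 at 5 weeks, 3.61-fold higher (limma adjusted p 0.000134), and lay between 7.61 and 8.40 on the control arrays. Its other probe set differed by 0.25. Vnn1, a pantetheinase, rose from 7.45, 6.77 and 6.79 to 9.06, 8.91 and 9.20. Cd28, the T cell costimulator, rose from 5.58, 6.88 and 6.39 to 7.73, 8.07 and 8.12 and lay between 7.96 and 8.24 on the control arrays. Another Cd28 probe set differed by 0.37. Adgrg2 rose by 1.96, Cntln by 1.93 and Zfp119b by 2.07. Another Adgrg2 probe set differed by 0.03. At 1 week Cntln measured 5.07, 3.17 and 4.93 and Zfp119b 3.90, 3.23 and 5.37. Some of these values lay below the log2 level of 4 that the filter uses. Ackr4, a decoy receptor for chemokines, rose from 5.32, 5.51 and 4.18 to 6.59, 6.98 and 7.43, above the control range of 4.46 to 5.89. Other probe sets of Vnn1 and Ackr4 differed by 1.05 and 1.62. Tlcd4 rose by 1.71, from 4.07, 4.22 and 3.99 at 1 week. An immunoglobulin kappa variable segment rose by 2.22. Of these, Zfp982 (1.76) was called only with replicate 3 at 5 weeks, and its other probe set differed by 0.57.

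Among the largest falls, Tmem242, a mitochondrial ATP synthase assembly factor, measured 9.17, 9.20 and 9.69 at 1 week and 6.54, 7.05 and 6.00 at 5 weeks, a fall of 2.82, but its other probe set differed by 0.27. Id1, a regulator of differentiation, measured 9.58, 9.51 and 9.71 at 1 week and 7.79, 8.33 and 7.24 at 5 weeks, a fall of 1.81. Pfn1, profilin, fell by 1.79, and Ppp3r1, the regulatory subunit of calcineurin, fell by 1.76, with another probe set at 0.41. Tuba8 (-1.95), Aatk (-2.24), Erdr1 (-1.89), Ttc5 (-1.79) and Rasd1 (-1.82) fell too. Rasd1 also differed by -1.24 in the controls (limma adjusted p 0.032), and the difference between its changes was not called. Other probe sets of Tuba8 and Ttc5 differed by -0.12 and -0.09. Sdf2l1, of the endoplasmic reticulum, fell by 1.96 with Manf (-0.82), Pdia3 (-1.14) and Pdia6 (-0.62). At 5 weeks Sdf2l1 measured 3.01, 3.89 and 4.03, near or below the log2 level of 4 that the filter uses. In that list of 31 heat shock and endoplasmic reticulum genes, 8 were lower (25.8% beside 12% of all genes) and 1 higher (3.23% beside 15.4%). Immediate early genes were lower in 6 of 25 cases (24.0% beside 12% of all genes) and higher in 1 (4.0% beside 15.4%). Among the lower ones were Jun (-1.23, another probe set 0.27), Ier2 (-1.17) and Ier3 (-1.46). The median of the list was -0.22, and it was -0.03 without the muscle-rich array. Probe sets of 1 gene called in opposite directions were found for 387 of 5679 genes with more than 1 probe set. For 263 of the 5679, all probe sets were called in 1 direction.

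Vessel genes moved both ways. In the list of 44 angiogenic genes 11 were higher and 3 lower, 25.0% higher beside 15.4% of all genes, with a median of 0.03. With all probe sets of a gene averaged 5 were higher and 7 lower, and 7 were higher without replicate 3 at 1 week, without replicate 3 at 5 weeks or with the 6 cold arrays alone. Over all genes, averaging gave 1476 higher and 1712 lower, and the other settings gave 1559, 1107 and 1159 higher. Flt1, a VEGF receptor, measured 7.74, 7.67 and 7.44 at 1 week and 8.57, 8.56 and 8.77 at 5 weeks, 2.03-fold higher (limma adjusted p 0.000905), while its other probe sets differed by -0.94 to 0.56. Vegfc, a lymphatic growth factor, rose by 1.28. Sox17 and Sox7, endothelial transcription factors, rose by 0.74 and 0.97, with another Sox17 probe set at -0.25. Pecam1, an endothelial adhesion protein, measured 9.37, 9.63 and 9.49 at 1 week and 7.98, 8.28 and 7.63 at 5 weeks, a fall of 1.53 (limma adjusted p 0.000325). Kdr, the main VEGF receptor, differed by 0.04. Vegfa was higher by 0.32, with another probe set at -1.13, and was -0.41 with the mean of all its probe sets. Its call was lost without replicate 2 or replicate 3 at 1 week and without each of the 5-week cold arrays.

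White adipocyte genes moved both ways. Of 23, 7 were higher (30.4% beside 15.4% of all genes) and 4 lower (17.4% beside 12%), with a median of 0.07. With arrays centred 5 were higher and 6 lower, with the 6 cold arrays alone 3 and 3, and without replicate 3 at 5 weeks 4 and 3. Over all genes these settings gave 1591 higher and 1998 lower, 1159 and 967, and 1107 and 947. Adipoq differed by -0.04 and Lep, leptin, by 0.11, and neither was called. Nnat, a small membrane protein, measured 11.48, 10.64 and 10.37 at 1 week and 11.68, 12.06 and 11.46 at 5 weeks, a rise of 0.90, below its control range of 13.59 to 13.78. The Nnat groups overlapped, and the call was lost without replicate 3 at 1 week or replicate 2 at 5 weeks. Slc2a4, the insulin-responsive glucose transporter, fell by 1.03, and its other probe set differed by -3.83. The Slc2a4 call was lost without replicate 3 at 5 weeks. Pck1, which makes glycerol for triglyceride storage, rose by 0.61 (another probe set -0.47), a call that was lost without replicate 3 at 1 week and without each of the 5-week cold arrays.

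Immune lists lay near the share of all genes called or below it. Of 34 macrophage genes 6 were higher (17.6%) and 4 lower (11.8%), beside 15.4% and 12% of all genes. Of 29 lymphocyte genes 3 were higher, 1 lower and 25 not called (13.8% called beside 27.5%), and of 14 granulocyte and type 2 genes 3 were higher and none lower (21.4% called). Ccr2, a monocyte chemokine receptor, measured 8.68, 8.40 and 8.44 at 1 week and 9.29, 9.35 and 9.30 at 5 weeks, higher by 0.81, but its other probe sets differed by -1.49 to 0.91. Csf1r was higher by 0.39, with others at -0.48 to 0.48. Folr2 and Mgl2, genes of resident macrophages, differed by -1.1 and -0.58. S100a9, a granulocyte gene, rose from 5.71, 5.62 and 5.77 to 7.20, 7.11 and 6.80, Il7r by 0.95 and Ighm by 1.24, with other Ighm probe sets at -0.55 to 2.19. Adgre1, a marker of mouse macrophages, differed by 0.13 and was not called. With the Actb signal as a covariate no member of the thermogenic, clock, angiogenic or white adipocyte lists was called either.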

How the data were processed

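Affymetrix arrays measured total RNA of white adipose tissue, 12 arrays in 4 groups of 3. The authors deposited a table of log2 values of 45101 probe sets, made with GCRMA per the submitters' processing notes, which correct background and normalize the arrays together; the version is not given in the sources used here. Signal over background, not a read depth, limits these values, and 3 arrays a group limit the precision.

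Control probe sets were left out of gene tests. Probe sets were kept where 3 or more arrays lay above log2 4, and a gene was represented by its kept probe set of highest mean. Group means over all 12 arrays were fitted with limma 3.58.1 in R 4.3.3 (lmFit, eBayes, Benjamini-Hochberg, 2-sided), a procedure tested on simulated data. Genes were named by rule: of called genes with no overlap between groups, the 14 that rose most and the 14 that fell most (clone names left out), up to 4 called members of each list, a fixed set of 31 genes, and the 5 highest and 5 lowest called differences. Lists are described by counts and medians, with no set test. Members and lists were chosen with earlier results of these data known. Motifs were searched in RefSeq start-site windows in 10 spellings, chosen with the results known. Alternatives changed the filter, the probe set rule, the scaling, the arrays in the fit, array weights, a replicate block and quality covariates.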

Additional observations from a re-analysis of the deposited data

Results flagged for a closer look

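The genes below were called as changing differently over time in cold and in control by the limma test of the difference (cold change minus control change, adjusted p below 0.05; log2 values). Positive differences were found for Kcnq1ot1 (2.73), Ackr4 (2.72), Zfp119b (2.33), Cdh19 (2.30), Adgrg2 (2.28), Cntln (2.26), Vnn1 (2.10), Tlcd4 (2.04), Zfp729b (2.00), Cd28 (1.67), Tet2 (1.5), S100b (1.42), Pdk4 (0.97) and Vegfa (0.55). Of these, Kcnq1ot1, Cdh19 and Pdk4 were not called in cold over time. Kcnq1ot1 (9.06, 6.77 and 9.03) and Cdh19 (5.93, 3.48 and 5.63) were low at 1 week in cold on the muscle-rich replicate 2. Negative differences were found for Aatk (-2.41), Pfn1 (-2.17), Tmem242 (-2.01), Id1 (-1.96), Tuba8 (-1.94), Tm7sf2 (-1.88), Sdf2l1 (-1.74), Pecam1 (-1.61), Erdr1 (-1.51), Ttc5 (-1.48), Clstn3 (-1.44), Ppp3r1 (-1.40), Slc2a4 (-1.30) and Dbp (-0.96). The muscle genes Myh1 (-8.30), Acta1 (-7.94), Tnnc2 (-7.38), Tnnt3 (-7.19) and Atp2a1 (-5.87) had the lowest differences. They were high on replicate 2 of the 1-week cold arrays and on the 5-week control arrays. Against 2551 genes called in the difference as reported, 3 were called with the Gapdh covariate, 0 with the Actb covariate, 824 with the muscle covariate and 1 with the 5-week control arrays averaged and counted as 1 (limma, 4540 genes at an unadjusted p below 0.05 as reported).

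Probe sets with no or several gene names, which the gene comparison leaves out, gave 1204 calls of 4132 in cold over time (29.1%), beside 137 (3.32%) in the controls.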

How the results depend on the processing

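Against the 3534 genes called in cold (1986 higher, 1548 lower), the 6 cold arrays alone gave 2126 (1159 higher, 967 lower), the Gapdh 3' minus 5' covariate 1885 (987 and 898) and the Actb covariate 5 (1 and 4). Leaving out 1 cold array gave 2054 to 3367 genes (1107 to 2112 higher, 947 to 1373 lower), the lowest without replicate 3 at 5 weeks, while probe sets called ranged from 4524 to 6897 (7538 with all arrays). The 328 genes called in the controls became 61 to 840 with 1 control array left out. The 2551 genes called in the difference became 3 with the Gapdh covariate, 0 with the Actb covariate (limma, where 4540 genes had an unadjusted p below 0.05 without it) and 824 with the muscle covariate, and 1381 to 3021 with 1 array left out. 3 alternatives were chosen after seeing the data. The control arrays at 5 weeks correlated with each other more closely (mean r 0.9974 to 0.9977) than those of the other groups (0.9916 to 0.9955), and averaged and counted as 1 they left 13 genes called in the controls and 1 in the difference. Without replicate 2 at 1 week and replicate 3 at 5 weeks 2227 were called in cold (849 lower), and with replicate 2 as the only 5-week cold array, whose spread is assumed to be that of the other groups, 502 (224 higher, 278 lower). Signs turned for Clstn3 (0.10) and Ltb (0.04) with the Actb covariate and for Vegfa (-0.41) with the mean of all probe sets; the cause was not tested. Deviations of same-numbered cold arrays had r of -0.0254, 0.0566 and 0.027, within a range of -0.0501 to 0.0566 over all pairs of numbers. With 3 arrays a group this cannot settle whether the numbers pair the arrays. A replicate block gave 3483 genes in cold, 257 in the controls and 2456 in the difference. Weak signals near log2 4 limit what can be called.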

Other observations

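Genes of iron handling, looked at after the transferrin receptor control probe sets were seen to change, moved between the cold groups. The 3' control probe set of the transferrin receptor measured 7.72, 6.59 and 8.01 at 1 week in cold and 4.97, 5.28 and 4.67 at 5 weeks, and 4.44 to 4.87 on the control arrays. The gene's own probe set, Tfrc, measured 12.16, 11.42 and 11.91 at 1 week and 10.37, 10.54 and 10.32 at 5 weeks, a fall of 1.42 (SE 0.19, limma adjusted p 0.000803), with 9.58 to 10.19 on the control arrays. Slc40a1, the iron exporter ferroportin, went from 6.83, 6.44 and 6.20 to 7.93, 8.05 and 8.28, a rise of 1.60 (SE 0.17, limma adjusted p 0.000317). Hephl1, a copper ferroxidase, fell by 1.68 and Alas1, the first enzyme of heme synthesis, by 0.61. Heph, Ireb2 and Steap4 were higher by 0.45, 0.53 and 0.25. Of 11 such genes tested 4 were higher, 3 lower and 4 not called, beside 27.5% of all genes called, the last being Fth1, Hamp, Slc11a2 and Slc39a14. The genes were chosen after their values could be seen, and the Actb 3' minus 5' signal, which did not overlap between these groups, moved with them; its part in the changes was not tested.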
